A study of Mus musculus with 8 samples.

Results

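Potassium channel genes were compared between the cerebella of a pair of mouse strains that differ in their sensitivity to ethanol. The set holds the genes of the voltage-gated potassium channels, of the two-pore potassium channels and of the subunits named with them. Members were the probe sets whose only gene symbol in the platform annotation begins with Kcna to Kcnh, Kcnq, Kcns, Kcnv, Kcnk, Kcnip or Kcnt followed by a digit. The inward rectifiers (Kcnj) and the calcium-activated channels (Kcnm and Kcnn) were left out. This gave 111 probe sets of 55 genes out of 45137 probe sets on both chips, 50 probe sets of 37 genes on the 430A chip and 61 probe sets of 35 genes on the 430B chip. Of the genes, 17 were on both chips. No Kcnb gene was among them, so that the Kv2 subfamily is not described. Kcnq1ot1, a noncoding RNA transcribed antisense to Kcnq1, met the rule by its letters and is not a channel. It was kept apart from the Kcnq genes.

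The mice were alcohol-naive males. Mice 48 and 51 were Inbred Long Sleep (ILS) and mice 55 and 56 Inbred Short Sleep (ISS). Both strains go back to lines bred for how long ethanol abolished their righting reflex. All mice had free access to food and water for 14 days after a transfer between institutions and received no treatment, and the labels used here give no age. Cerebellar RNA from each mouse was hybridised to 1 array of each chip, 8 arrays in all, and the series asks how baseline expression differs between the strains. A positive log2 fold change below is a higher signal in ILS, signals are in arbitrary MAS5 units scaled to the same trimmed mean on every array, and errors are standard errors from limma over 2 mice per strain.

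On 430A both ILS arrays were run on another fluidics station than both ISS arrays and were scanned before them, and on 430B both ISS arrays were scanned first. Strain therefore cannot be told apart from scan order on either chip, or from station on 430A. Of 10 genes that mark cerebellar tissue, 8 were bright enough to be tested on 430A, whereas En1 and Zic2 lay below the median of every array. Of markers of neurons of other brain regions, 4 of 6 on 430A (Hoxa2, Neurod6, Slc6a3 and Tbr1) lay below the median of all 4 arrays and 1 lay above it on all, and on 430B 1 of 2 lay below and 1 above. Over all tested probe sets 2.93% passed the test on 430A and 0.48% on 430B, in either direction. Microglial markers were higher in ILS on 430A, where 4 of 8 tested genes passed. Their summed signal was 6804 to 6839 in ILS against 4245 to 5099 in ISS. The 1 microglial gene tested on 430B had a log2 fold change of -0.002. Endothelial or pericyte markers were higher for 6 of 7 tested genes on 430A, and 0 passed. Their sums were 6660 to 7063 in ILS against 5269 to 5305 in ISS. Purkinje cell markers were lower for 8 of 10 tested genes on 430A, of which 2 passed the test. The sums of these markers were 33415 to 36341 in ILS against 37220 to 47914 in ISS. On 430B, in contrast, 2 of 3 tested Purkinje genes were higher in ILS, of which 1 passed. Granule cell markers were lower for 8 of 9 tested genes on 430A, and 0 passed. Their summed signal there was 23955 to 28563 in ILS against 28669 to 32551 in ISS. On 430B 3 of 4 tested granule genes were lower in ILS, of which 1 passed. Bergmann glia or astrocyte markers were lower for 3 of 4 tested genes on 430B, of which 1 passed. Oligodendrocyte markers were higher for 5 of 9 tested genes on 430A, of which 1 passed. Choroid plexus or meninges markers were higher for 3 of 5 tested genes on 430A, of which 1 passed. Fewer cells of a type and less RNA per cell cannot be told apart in whole tissue, and the part of cell makeup in the results below was not tested.

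Voltage-gated potassium channels open when the membrane is depolarised and bring the neuron back towards rest, so they set spike width and firing rate. Pore-forming subunits of the same subfamily assemble around a shared pore, and accessory subunits such as the Kv channel interacting proteins (KChIPs, the Kcnip genes) change how much channel reaches the membrane and how fast it inactivates. Two-pore channels stay open at rest and carry leak current. In the cerebellum, Kv3 channels let Purkinje cells and interneurons fire fast, Kv1 channels sit in basket cell terminals and axons, and Kv4 channels with KChIPs carry the A-type current of granule cells.

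Of the 111 probe sets, 60 passed the filter for brightness (mean log2 signal at or above the median of the chip) and were tested, 22 of 15 genes on 430A and 38 of 25 genes on 430B. Together they covered 34 genes. On 430A 1 of the 22 passed the test (limma, Benjamini-Hochberg adjusted p under 0.05), a Kcnip3 probe set lower in ILS. Among all probe sets tested on 430A, 2.93% passed in either direction and 1.33% passed with a lower signal in ILS. On 430B 0 of the 38 passed, where 0.48% of all tested probe sets did. The counts at an unadjusted limma p under 0.05 were 4 of 22 on 430A (18.2%, against 21.8% of all tested) and 3 of 38 on 430B (7.89%, against 9.02%). The strains did not overlap, with both ILS values above or both below every ISS value, for 12 of 22 members on 430A (54.5%, against 54.3% of all tested). This held for 13 of 38 on 430B (34.2%, against 38.9%). By all of these counts the channel genes were near the background of their chip.

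The fold change was under 0.5 on the log2 scale, in either direction, for 18 of 22 tested members on 430A (81.8%, against 88.4% of all tested) and for 37 of 38 on 430B (97.4%, against 88.5%). The 95% interval of the difference lay within 2-fold either way for 17 of 22 members on 430A (77.3%, against 92.0% of all tested) and for 35 of 38 on 430B (92.1%, against 79.7%). The 5 exceptions on 430A were both Kcnip3 probe sets and single probe sets of Kcnip1, Kcnh1 and Kcne1l. The 3 on 430B were single probe sets of Kcnq5, Kcna2 and Kcnh8. The members had a median log2 fold change of -0.09 (430A) and -0.06 (430B), against -0.01 and -0.000512 over all tested probe sets. A value above 0 was found for 7 of 22 members on 430A (31.8%, against 48.3% of all tested) and for 13 of 38 on 430B (34.2%, against 49.9%). The signs depend on the scaling. The median of the 430A arrays was higher in ILS by 0.16 on the log2 scale, and that of the 430B arrays by 0.05. Setting the medians equal lowers every log2 fold change of a chip by that amount. Values just above 0 then fall below it, among the members and among all tested probe sets alike. With equal medians the 430A calls went from 332, of which 54.8% were higher in ILS, to 1158, of which 19.3% were.

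**Figure D1:**
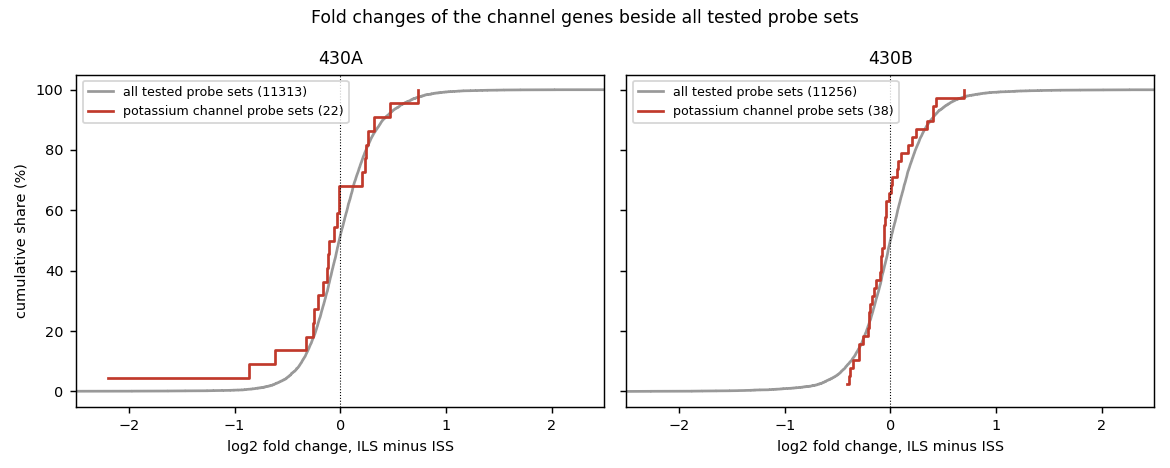
Cumulative share of probe sets (y axis) at or below each log2 fold change, ILS minus ISS (x axis), for the tested channel members and for all tested probe sets of each chip. The member curves lie to the left of the curves of all probe sets over much of their course, with member medians of -0.09 on 430A and -0.06 on 430B.

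**Figure D2:**
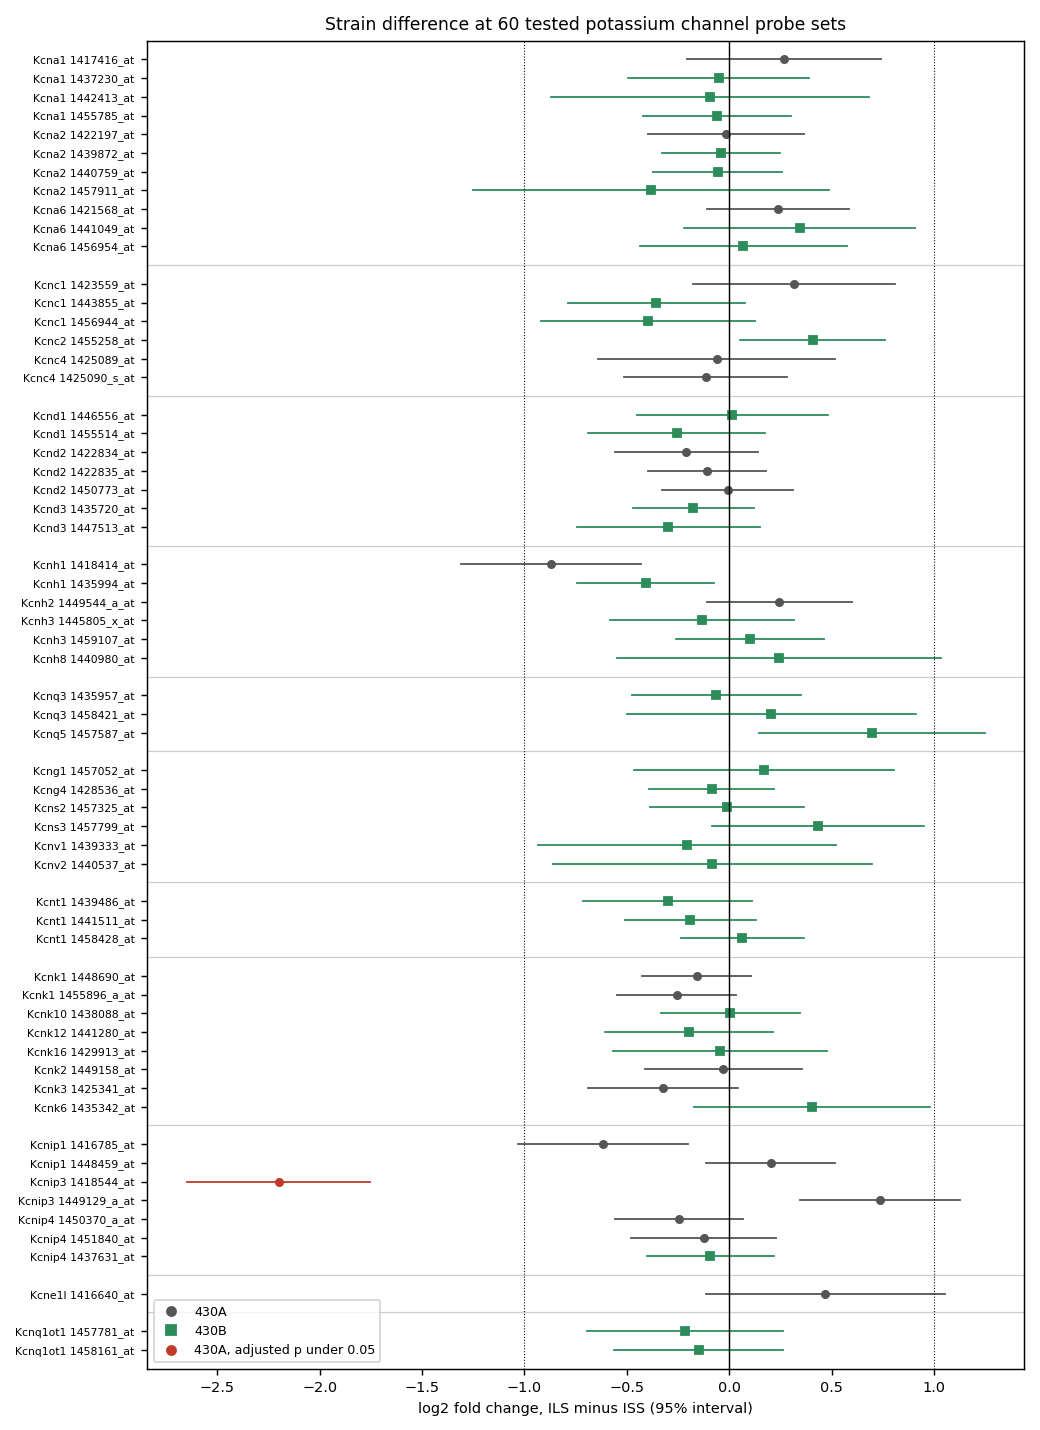
Log2 fold change, ILS minus ISS (x axis), with its 95% interval from limma for each of the 60 tested probe sets, ordered by role group. Kcnip3 1418544_at stands at -2.20, and every other member lies between -0.87 and 0.74.

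Kcnip3 encodes KChIP3, a calcium-binding protein that is also known as calsenilin and as the transcriptional repressor DREAM. It was read by a pair of probe sets on 430A, which gave differences of opposite sign. The signal of 1418544_at was 109 and 94.3 in the ILS mice and 440 and 495 in the ISS mice. Both ILS values lay far below both ISS values, and both were under the median of their arrays, so that the fold is a lower bound, with ISS at least 2.0-fold higher. The measured log2 fold change was -2.20 ± 0.19 (adjusted p = 0.00147), and the adjusted p stayed between 5.75e-06 and 0.00623 under every alternative in which the probe set was tested. It passed the brightness filter through its ISS values alone. The other probe set, 1449129_a_at, read 587 and 458 in ILS and 309.8 and 313 in ISS. Here the ILS values were the higher ones, again without overlap, with a log2 fold change of 0.74 ± 0.17 that did not pass the test (adjusted p = 0.0616). The platform annotation ties both probe sets to the same transcript accession, and the stretch of the transcript that each one reads was not analysed here.

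Because the Kcnip3 probe sets pointed in opposite directions, the starts that RefSeq annotates for the gene are shown. RefSeq lists 3 transcript starts for Kcnip3 on the minus strand of chromosome 2 in GRCm38.p6, with 702 bases from start 1 to start 2 and 38893 bases from start 2 to start 3. The 250 bases before each start are printed 5′ to 3′ on the strand of the gene, with capitals for the letters of 3 promoter motifs searched on both strands. These were the GC box, spelled GGGCGG, the element known as the CCAAT box, spelled as it is named, and the one that binds the TATA-binding protein in promoters with a sharply placed start, spelled TATAAA. The arrays do not tell from which start the RNA came.
Kcnip3 window 1, chr2:127522095-127522344: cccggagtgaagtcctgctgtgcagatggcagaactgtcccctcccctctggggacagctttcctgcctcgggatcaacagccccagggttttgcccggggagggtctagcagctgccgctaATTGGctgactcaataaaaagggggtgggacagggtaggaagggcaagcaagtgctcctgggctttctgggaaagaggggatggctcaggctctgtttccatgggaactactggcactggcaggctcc
Kcnip3 window 2, chr2:127521393-127521642: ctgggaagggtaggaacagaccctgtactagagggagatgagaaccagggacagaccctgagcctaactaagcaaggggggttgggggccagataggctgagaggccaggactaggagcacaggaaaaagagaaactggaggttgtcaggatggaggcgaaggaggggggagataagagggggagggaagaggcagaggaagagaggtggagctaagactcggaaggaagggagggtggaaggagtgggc
Kcnip3 window 3, chr2:127482500-127482749: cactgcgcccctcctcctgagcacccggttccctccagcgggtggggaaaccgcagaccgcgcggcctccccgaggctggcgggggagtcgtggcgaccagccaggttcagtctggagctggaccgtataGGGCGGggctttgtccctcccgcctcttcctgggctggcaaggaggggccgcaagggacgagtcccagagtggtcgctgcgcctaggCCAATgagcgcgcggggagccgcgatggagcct
Window 3 held 23 CpG dinucleotides and 1 GC box, whereas window 1 held 4 and window 2 held 2, neither with a GC box. A match of letters is a description and not a binding site.

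Kcnip1 encodes KChIP1, another partner of Kv4 channels, and its probe sets on 430A also gave both signs. The signal of 1416785_at was 575 and 784 in ILS and 1128 and 941 in ISS, lower in both ILS mice than in either ISS mouse. Its log2 fold change of -0.62 ± 0.18 did not pass the test (adjusted p = 0.106) and was -0.39 without ILS 48. Probe set 1448459_at, which carries the same accession, read 729 and 819 in ILS and 656 and 688 in ISS, with a log2 fold change of 0.20 ± 0.14 (adjusted p = 0.425). Kcnip4, the gene of a KChIP that slows the inactivation of Kv4 channels, had 3 tested probe sets with log2 fold changes of -0.24, -0.13 and -0.09, none of which passed. Over the Kcnip genes, 5 of 7 tested probe sets lay below 0 and 2 above. The test called 1 of the 7 lower in ILS and 0 higher, and 6 did not pass. That call was Kcnip3 1418544_at, which passed the brightness filter through its ISS values alone. Over all tested probe sets of 430A, 1.33% were called lower and 2.93% either way, and 0.48% either way on 430B.

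**Figure D3:**
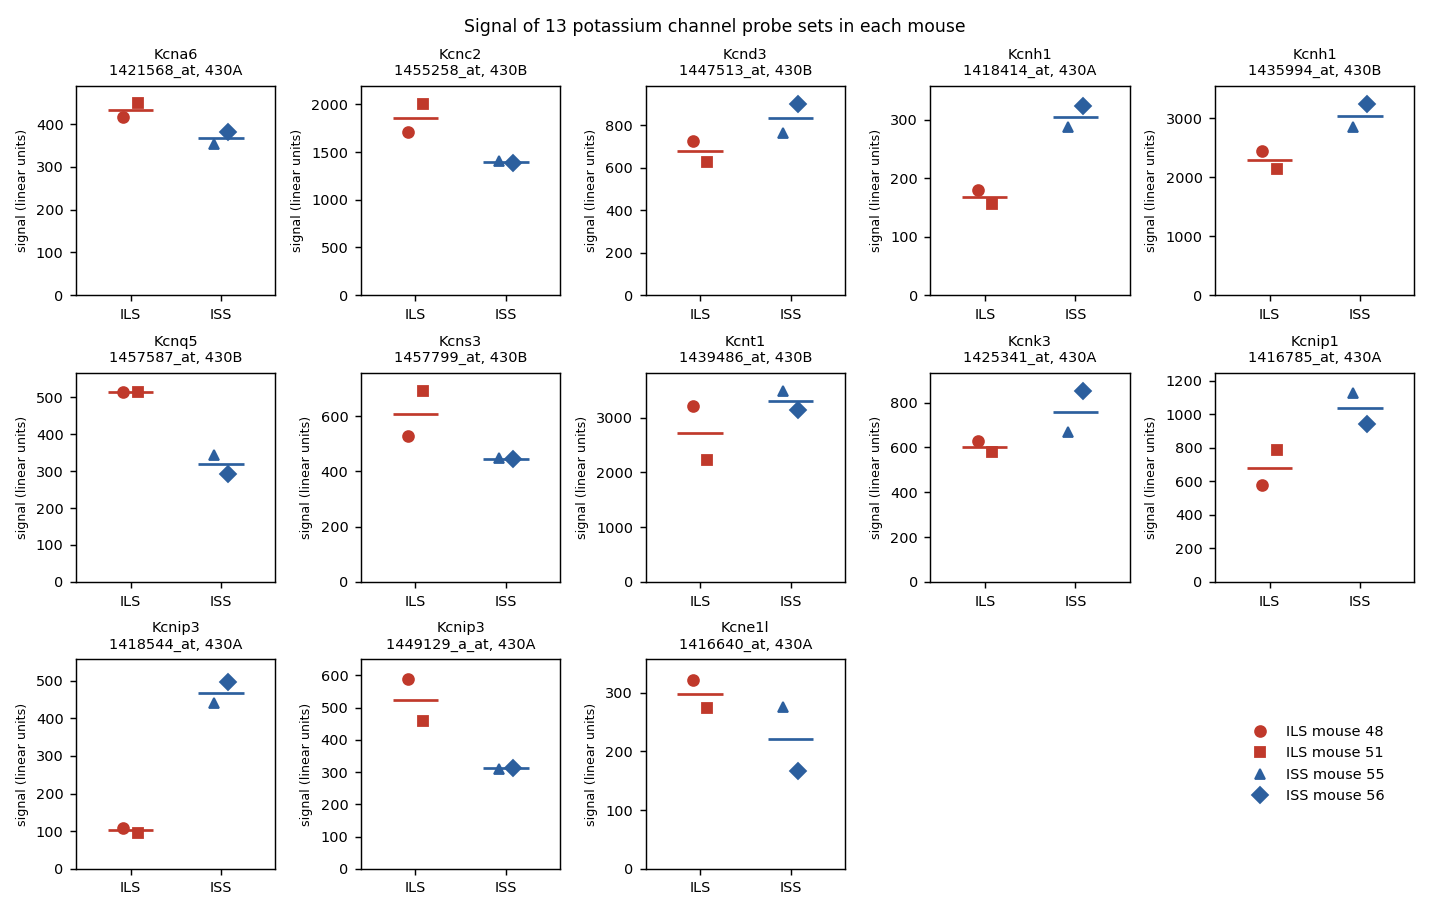
Signal (y axis, linear MAS5 units from 0) in each of the 4 arrays for the 13 named member probe sets, with a point per mouse and a bar at the mean of each strain. The ILS points lie below the ISS points in Kcnip3 1418544_at and above them in Kcnip3 1449129_a_at.

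Kcnh1 encodes the ether-a-go-go channel Eag1, and both of its probe sets were lower in ILS without passing the test. On 430A, 1418414_at read 179 and 155 in ILS and 288 and 324 in ISS. Both ILS values were under the median of their arrays, and the probe set passed the brightness filter through its ISS values alone, so that ISS was higher by at least 1.31-fold, with a measured log2 fold change of -0.87 ± 0.19 (adjusted p = 0.054). It passed in 4 of 11 alternatives (equal medians, quantile normalization, no intensity trend and robust eBayes) and not in the other 7, with adjusted p from 0.00778 to 0.234. On 430B, where the same mice were measured by other probes, 1435994_at read 2442 and 2145 in ILS and 2851 and 3233 in ISS. The strains did not overlap there either, and the log2 fold change was -0.41 ± 0.15 (adjusted p = 0.418). Kcna2 and Kcnip4 likewise lay below 0 at every tested probe set of both chips, so this is not particular to Kcnh1. RefSeq lists 1 start for Kcnh1, on the plus strand of chromosome 1. The 250 bases before it are printed with the same capitals. Kcnh1 was picked because its probe set on each chip lay below 0 without overlap, though neither passed the test.
Kcnh1, chr1:192190527-192190776: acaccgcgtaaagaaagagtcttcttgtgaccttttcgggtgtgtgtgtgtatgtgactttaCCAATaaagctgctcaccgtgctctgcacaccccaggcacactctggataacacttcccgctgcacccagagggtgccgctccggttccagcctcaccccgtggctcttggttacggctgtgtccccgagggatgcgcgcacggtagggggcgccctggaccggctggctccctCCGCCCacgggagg
This window held 17 CpG dinucleotides, 1 GC box and 1 CCAAT box. The other Kcnh genes, Kcnh2 of the Erg channel and Kcnh3 and Kcnh8 of Elk channels, had 4 tested probe sets with log2 fold changes from -0.13 to 0.24. None of them passed.

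The Kv1 genes encode low-threshold channels that hold down repetitive firing. None of their 11 tested probe sets passed, and the log2 fold changes ran from -0.38 to 0.34. The smallest p belonged to Kcna6 1421568_at on 430A, which read 416 and 449 in ILS and 353 and 382 in ISS, for a log2 fold change of 0.24 ± 0.15 (adjusted p = 0.392) without overlap. Its 3 probe sets were all above 0. Kcna2 had 4 probe sets, all below 0, from -0.38 to -0.02. Kcna1, whose mutation causes episodic ataxia in humans, had 4 probe sets that all overlapped between strains, with log2 fold changes of 0.26 on 430A and of -0.05, -0.10 and -0.06 on 430B.

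The Kv3 genes encode the channels of fast-spiking neurons. None of their 6 tested probe sets passed. Kcnc2 1455258_at on 430B read 1711 and 2003 in ILS and 1411 and 1383 in ISS. Both ILS values were the higher ones, and the log2 fold change was 0.41 ± 0.16 (adjusted p = 0.447). Kcnc1 gave 0.32 ± 0.21 on 430A and -0.36 ± 0.19 and -0.40 ± 0.23 on 430B, so that its sign differed between the chips for RNA of the same mice.

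The Kv4 genes encode the A-type channels that the KChIPs bind. Of their 7 tested probe sets 0 passed, 6 lay below 0 and the log2 fold changes ran from -0.30 to 0.01. Kcnd2, the Kv4 gene known from granule cells, had values of -0.21, -0.11 and -0.01 on 430A. Kcnd3 1447513_at on 430B lay lowest. It read 726 and 626 in ILS and 764 and 899 in ISS, without overlap, for a log2 fold change of -0.30 ± 0.20 (adjusted p = 0.741) that was -0.19 without ILS 51 and -0.18 without ISS 56.

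The Kcnq genes encode the channels of the M-current, which muscarinic receptors close. Kcnq5 1457587_at on 430B read 513 and 514 in ILS and 344 and 292 in ISS. Both ILS values were higher, and the log2 fold change of 0.69 ± 0.25 did not pass the test (adjusted p = 0.405). The pair of tested Kcnq3 probe sets lay at -0.06 and 0.20. The noncoding Kcnq1ot1 had 2 tested probe sets of 6, at -0.22 and -0.15, neither of which passed.

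Silent subunits (Kcnf, Kcng, Kcns and Kcnv) form no channel alone and alter Kv2 channels when they join them. None of their 6 tested probe sets passed. Kcns3 1457799_at on 430B read 529 and 689.8 in ILS and 447 and 446 in ISS, for a log2 fold change of 0.44 ± 0.23 (adjusted p = 0.644) without overlap, or 0.24 without ILS 51. The others lay between -0.21 and 0.17. Kcne subunits are small proteins with a single membrane span that join Kv channels. Only Kcne1l, now called Kcne5, was bright enough on 430A, with 322 and 274 in ILS and 276 and 167 in ISS. The strains overlapped, and the log2 fold change was 0.47 ± 0.25 (adjusted p = 0.32), or 0.83 without ISS 55 and 0.11 without ISS 56. Kcnt1 encodes the sodium-activated channel Slack. Of its 3 tested probe sets on 430B, 1439486_at had the smallest p, with 3215 and 2236 in ILS and 3479 and 3136 in ISS, and a log2 fold change of -0.30 ± 0.18 (adjusted p = 0.702). The value was -0.56 without ILS 48 and -0.04 without ILS 51. The strains overlapped for 1439486_at and 1458428_at and not for 1441511_at.

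Among the two-pore genes 0 of 8 tested probe sets passed, and 6 lay below 0. Kcnk3, which encodes the acid-sensitive leak channel TASK-1, had the smallest p. Its probe set 1425341_at on 430A read 629.5 and 578 in ILS and 669.5 and 851 in ISS, both ILS values below both ISS values, for a log2 fold change of -0.32 ± 0.16 (adjusted p = 0.279), or -0.50 without ISS 55 and -0.15 without ISS 56. Both probe sets of Kcnk1 (TWIK-1) were likewise without overlap, at -0.16 and -0.26. Kcnk6 (TWIK-2) lay at 0.40 on 430B, also without overlap but with both ILS values the higher ones. Kcnk2 and Kcnk10, of the stretch-sensitive TREK channels, lay at -0.03 and 0.01 with overlap.

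Of the genes, 17 had several tested probe sets. For 9 of these all probe sets had the same sign, 1 higher in ILS (Kcna6) and 8 lower, and for 8 the signs were mixed. Of the 6 genes tested on both chips, 4 had the same sign throughout. The 51 members that were not tested lay low: all 4 arrays were below their median for 27 of 28 on 430A and for 20 of 23 on 430B. Fitted without the filter, 0 of them passed (limma, smallest adjusted p = 0.0989 on 430A and 0.321 on 430B). For 21 genes no probe set was tested, among them Kcna3, Kcna4, Kcna5, Kcnq1, Kcnip2 and Kcnk4, and for these genes no difference could be measured at this signal.

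A list of 30 genes of channel partners was read beside them, holding Kv beta subunits, scaffolds, Kv4 auxiliary proteins, the Lgi complex of Kv1 channels and trafficking factors. On 430A 23 were tested, each by its brightest probe set, of which 2 were lower in ILS, 0 were higher and 21 did not pass, with a median log2 fold change of -0.09. Over all tested probe sets of 430A, 1.33% were called lower and 2.93% either way. S100a10, also called p11, binds TASK-1. Its signal in 1416762_at was 523 and 512 in ILS and 850.2 and 994 in ISS, for a log2 fold change of -0.83 ± 0.14 (adjusted p = 0.0273). Nedd4l, a ubiquitin ligase that takes channels from the membrane, read 401 and 464 in ILS and 763 and 669 in ISS in 1423269_a_at, a log2 fold change of -0.73 ± 0.15 (adjusted p = 0.0462). Neither pair of strains overlapped. The S100a10 call was lost in 4 of 12 alternatives and the Nedd4l call in 8 of 11. Without ILS 48, ILS 51 or ISS 56 the adjusted p of S100a10 was 0.0792, 0.0523 and 0.097, and that of Nedd4l lay between 0.051 and 0.15 whichever mouse was left out. Another S100a10 probe set on 430A, 1456642_x_at, lay at -0.91 without overlap and did not pass (adjusted p = 0.13). Kcnab3 1423950_at, a Kv beta subunit probe set that was not the brightest of its gene, was chosen after its values were seen. It read 324 and 392.1 in ILS and 203 and 191 in ISS, where it was dim. It passed the brightness filter through its ILS values alone. The measured log2 fold change of 0.85 ± 0.18 did not pass the test (adjusted p = 0.0501), and its limma interval ran from 0.44 to 1.27. Taken against the array median, the measured fold was at least 1.71, a figure that leaves out the error of the fit. The brightest Kcnab3 probe set on 430A, 1421790_a_at, lay at 0.31 without overlap and did not pass either (adjusted p = 0.295). On 430B 4 further probe sets of Nedd4l lay between -0.05 and 0.26 and 1 of S100a10 at 0.07, none of which passed. Of the 15 partners tested on 430B 0 passed, with a median log2 fold change of 0.05. By the brightest probe set of each gene, the smallest p there belonged to Adam23 1447946_at, at 0.50 ± 0.13 (adjusted p = 0.196), and to Dpp6 1439748_at, at 0.33 ± 0.19 (adjusted p = 0.694). The Dpp6 value was 0.15 without ILS 48 and 0.50 without ILS 51. Adam23 had the other sign at 1459642_at on 430B, at -0.40 without overlap, and at 1423378_at on 430A, at -0.09 with overlap. Neither passed. Cntn2 1435166_at, not the brightest of its gene, had a smaller p than Dpp6, at -0.48 ± 0.15 (adjusted p = 0.299). The other Cntn2 probe sets did not share its sign. On 430B 1435165_at, the brightest, lay at 0.005 and 1456962_at at 0.003, both with overlap. On 430A 1450523_at lay at 0.45 without overlap and did not pass.

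The sequence before the starts of the channel genes was described by its base composition. RefSeq windows of GRCm38.p6 were found for 41 of the 55 genes, 57 windows in all, and windows of the same gene can overlap. Their median GC content was 60%, against 52.4% over all 32851 windows, and single windows ranged from 42.4% to 74.4%. A GC box stood in 27 of the 57 (47.4%, against 32.7% of all windows), a CCAAT box in 17 (29.8%, against 33.8%) and a TATA box in 0 (against 12.4%). The 3 motifs differ in their letters, and none of these counts was tested.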

How the data were processed

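Biotin-labelled cRNA from cerebellar total RNA was measured on the chips 430A and 430B of Affymetrix, per the labels' protocols. The authors deposited signal intensities on a linear scale, for which the submitters' processing notes name MAS5 without a version. The values had a 2% trimmed mean of 500 on each array, no detection calls were used, and probe-level data were not analysed here. Station and scan order were read from the experiment files, per the file headers.

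The 64 control probe sets were left out, signals were rescaled to the same trimmed mean and log2 transformed, and probe sets at or above the chip median in mean log2 signal were tested, which left 11313 on 430A and 11256 on 430B. Strains were compared separately on the chips with limma 3.58.1 under R 4.3.3 (lmFit, eBayes with an intensity trend, two-sided, 2 residual degrees of freedom), with Benjamini-Hochberg adjustment over all tested probe sets of the chip and a threshold of 0.05. The replicates are separate mice. A strain was called dim where neither of its values reached the array median, and its fold is then a lower bound, taken against the array median where the value is lower. Genes come from the platform annotation, and probe sets of different genes were not compared in level.

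The members and all gene lists were chosen with earlier results of these data known. Named with their values were members past the test, members with an unadjusted p under 0.05, the member with the smallest p in each other role group, the other probe sets of a gene past the test, and of the partners those past the test or else the 2 with the smallest p; other members are named by their ranges, and some were picked after their values were seen. The steps were tested on simulated data.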

Additional observations from a re-analysis of the deposited data

How the results depend on the processing

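On 430A 1 member passed the test. The count was also 1 with both chips adjusted together, without a filter and with a pseudocount at the 20th percentile. It was 4 with equal array medians (both Kcnip3 probe sets, Kcnip1 1416785_at and Kcnh1 1418414_at), and 2 without the intensity trend, 2 with robust eBayes and 2 with quantile normalization (Kcnip3 1418544_at and Kcnh1 1418414_at each time). It was 0 with a filter at the 75th percentile, where Kcnip3 1418544_at was not tested. Leaving out each mouse gave counts from 1 to 2, and the count of 2 came without ILS 51, where both Kcnip3 probe sets passed. Such fits assume that the remaining array of the strain varies as the other strain does. On 430B 0 members passed in every setting, the station as a block included (3 had an unadjusted limma p under 0.05 as reported). Only ILS 48 was run on station 1 of 430B, so the station block gave the same log2 fold changes as leaving out ILS 48. It is therefore no separate check of station. No paired analysis was possible because the strains share no replicate numbers. Of 204 recomputed values of named probe sets, 185 kept their direction and their side of the threshold, 12 lost and 7 gained a call, and 0 reversed. The count of reversals says little. Settings that alter only the filter, the adjustment or the variance model leave the log2 fold change as it is, so no sign could reverse there. The station values repeat those without ILS 48 and entered the count under both settings. Most of the named probe sets were also chosen for a small p. The cause of the lost and gained calls was not tested. With 2 mice per strain and no detection calls, a probe set near the array median gives only a bound in the dimmer strain.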

Other observations

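On 430B the channel genes had a median absolute log2 difference of 0.243 between ILS 48 and 51 and of 0.105 between ISS 55 and 56. ILS 48 was run on station 1 and the other 3 arrays of 430B on station 2, so that mouse and station cannot be told apart in the ILS pair. On 430A, where each pair shared a station, the values were 0.19 and 0.178. Over all tested probe sets of 430B these values were 0.246 and 0.199. The following probe sets were chosen after their values were seen. Kcna1 1455785_at read 15342 in ILS 48 and 11534 in ILS 51, against 14358 and 13398.5 in the ISS mice, and Kcna1 1437230_at read 5575 and 3580.1 against 4691 and 4569. Kcnc1 1443855_at read 8569 in ILS 48 and 5553 in ILS 51, against 8802 and 8862 in the ISS mice. ILS 48 was also the higher ILS mouse in Kcna1 1417416_at on 430A, at 2089.6 against 1313, and in Kcnc1 1423559_at on 430A, at 1366 against 1047. Kcna1 1442413_at on 430B went the other way, with 203 in ILS 48 and 352 in ILS 51.

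Some members below the filter were far apart between strains at low signal. Kcnd3 1442555_at on 430B read 51 and 59.4 in ILS and 198 and 252 in ISS, whereas Kcnd3 1426070_a_at on 430A read 96.9 and 67.6 in ILS and 20.2 and 24.2 in ISS. Neither passed when fitted without the filter (limma, adjusted p = 0.321 and 0.0989), and the tested Kcnd3 probe sets of the report lay at -0.18 and -0.30 on the log2 scale.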
